A study of Homo sapiens with 17 samples.

Results

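TcMar-Mariner is the family label that the repeat annotation gives to the human copies of mariner DNA transposons, and its loci were taken by that label alone from a table of repeat loci. The label marked 10943 of the 3594049 loci in the table. They belonged to 5 subfamilies: 576 HSMAR1, 1364 HSMAR2, 4553 MADE1, 1907 MADE2 and 2543 MARNA loci. The libraries measured RNA that came down with the LINE-1 proteins ORF1p and ORF2p in RIP-seq, in which a protein is captured on affinity media and the RNA on it is sequenced. All 17 were made from N2102Ep, an established human embryonal carcinoma line: 4 from an ORF1p RIP, 4 from an ORF2p RIP, 3 from a mock IP and 6 from total RNA. The mock IP descriptions carry the tag mIgG, and this control serves for both RIPs. The ORF2p RIP descriptions follow another naming scheme, and differences in handling between the groups were not tested. The source of the mock IP, ORF2p RIP and total RNA is given as N2102Ep clone 2/A6, so these groups rest on 1 clone, and the ORF1p RIP is labelled only by the line. No transgene, added agent or time point is named for any group, and nothing says that replicates came from separate cultures, so the p-values reflect only how far these libraries vary, which may be technical variation.

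Mariners move by cutting and pasting a DNA copy: a transposase binds short inverted repeats at both ends of the element, excises it and inserts it at a TA dinucleotide. They have no RNA stage, and no human copy is known to move today. HSMAR1 and HSMAR2 are the long elements that carried a transposase gene, MADE1 is a short palindrome made of little more than the ends of HSMAR1, MADE2 is a similar palindrome, and MARNA is an old non-autonomous element. An HSMAR1 transposase survives as the second part of SETMAR, a gene fused to a histone methyltransferase domain, and MADE1 copies are the source of many microRNAs of the miR-548 family. LINE-1 moves by copying an RNA: ORF1p coats that RNA, and ORF2p cuts the target DNA and reverse transcribes the RNA into it. Mariner RNA in these libraries can be read through from a host gene as well as made from a promoter near the element, and the table does not separate these.

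Sequences that show the MADE palindrome and its microRNA seeds were taken from RefSeq hairpin and promoter windows (GRCh38.p14). In each element below, read 5′ to 3′, capitals mark bases of the outer 37 positions of either end that are complementary to the base at the mirrored position of the other end. A MADE1 element at chr3:195699413-195699491 (plus strand), which makes the MIR570 hairpin, paired at 31 of 37 positions:
MIR570 element (MADE1): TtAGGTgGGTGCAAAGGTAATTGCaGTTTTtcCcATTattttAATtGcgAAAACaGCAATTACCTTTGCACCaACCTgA
A MADE1 element at chrX:95063146-95063223 (plus strand), which makes the MIR548M hairpin, paired at 32 of 37 positions:
MIR548M element (MADE1): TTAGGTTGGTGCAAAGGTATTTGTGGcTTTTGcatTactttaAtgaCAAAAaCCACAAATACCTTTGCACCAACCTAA
A MADE2 element in the promoter window of OR1G1, 21.6% diverged, paired at only 7 of 37 positions and is not printed. The MADE2 element below, at chr4:55974233-55974310 (plus strand) in the promoter window of LOC124900705, paired better, at 19 of 37 positions:
LOC124900705 element (MADE2): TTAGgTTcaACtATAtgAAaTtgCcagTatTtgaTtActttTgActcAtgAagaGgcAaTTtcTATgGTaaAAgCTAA
The MADE1 copies differed from their consensus by 11.4% and 10.3%, and the printed MADE2 copy by 20.5%. Over all copies the median divergence was 8.9% for MADE1, 10.4% for HSMAR1, 12.8% for HSMAR2, 19.7% for MADE2 and 29% for MARNA.

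Mature microRNAs from 5 of the 7 microRNA loci with the highest mean levels are printed with the seed, bases 2 to 8, in capitals, because the seed shows which of them share targets by sequence.
hsa-miR-548o-3p (in an HSMAR1 locus): cCAAAACUgcaguuacuuuugc
hsa-miR-548aq-3p (in a MADE1 locus): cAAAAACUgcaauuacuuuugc
hsa-miR-548ah-3p (in a MADE1 locus): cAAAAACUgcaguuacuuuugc
hsa-miR-548aq-5p (in a MADE1 locus): gAAAGUAAuugcuguuuuugcc
hsa-miR-548ar-5p (in a MADE1 locus): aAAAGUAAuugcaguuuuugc
hsa-miR-570-5p (in a MADE1 locus): aAAGGUAAuugcaguuuuuccc
In all, 56 TcMar-Mariner loci, 54 of them MADE1, overlapped 59 microRNA genes, of which 55 were among the 73 MIR548 genes in the RefSeq table. A mature sequence was found for 44 of the 59 genes, which gave 53 mature names with 33 different seeds. The most common seed, AAAGUAA, was shared by 8 of these mature microRNAs, and AAAAACU was shared by 7. The median microRNA gene lay to 93.0% inside its element.

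Reads in repeats came to 7693841 to 9125527 per ORF1p RIP library, 9795032 to 17056092 per ORF2p RIP library, 12703395 to 16271143 per mock IP library and 8937441 to 19670774 per total RNA library. Between 21178 and 55549 of them fell in TcMar-Mariner loci. In replicate 3 of the ORF1p RIP reads covered few mariner loci, with 1848 where the other 3 had 2853 to 2926. The descriptions split total RNA into a series b (replicates 1 and 2) and a series bl (replicates 3 to 6), which differed in the mariner levels given below. Values are estimated counts of reads, and 68.6% to 86.2% of those above 0 were whole numbers in each library, so reads that match several copies appear to be divided among them.

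As a family, TcMar-Mariner took 0.300% ± 0.0172 (n = 4, SD) of repeat reads in the ORF1p RIP and 0.294% ± 0.00559 (n = 4, SD) in the ORF2p RIP. The mock IP stood at 0.218% ± 0.0124 (n = 3, SD) and total RNA at 0.282% ± 0.0396 (n = 6, SD), with means of 0.233% in series b and 0.306% in series bl. Every RIP library lay above every mock IP library. The HERVH-int and LTR7 repeats took 20.1% of repeat reads in the mock IP, 4.27% in the ORF1p RIP and 6.43% in the ORF2p RIP. Shares are parts of a whole, and the part of these repeats in the mariner difference was not tested. TcMar-Tigger stood at 3.93% with ORF1p, 2.94% with ORF2p and 3.15% in the mock IP. The whole DNA class stood at 10.2%, 7.45% and 8.21%. The exact two-sided permutation test gave p = 0.0571 for each RIP against the mock IP, and 0.08 after adjustment over 42 tests of shares. With 4 against 3 libraries 0.0571 is the smallest p possible, so the test could not meet the threshold for a call given below. The members were also chosen with earlier results of these data known, so nothing is concluded from this p. The makeup of the family differed more than its share. MARNA supplied 42.3% ± 1.89 (n = 4, SD) of mariner reads in the ORF1p RIP against 26.7% ± 0.338 (n = 3, SD) in the mock IP. HSMAR1 supplied 34.6% ± 1.95 (n = 4, SD) in the ORF2p RIP against 19.2% ± 0.183 (n = 3, SD) in the mock IP and 13.6% ± 0.435 (n = 4, SD) in the ORF1p RIP.

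**Figure D1:**
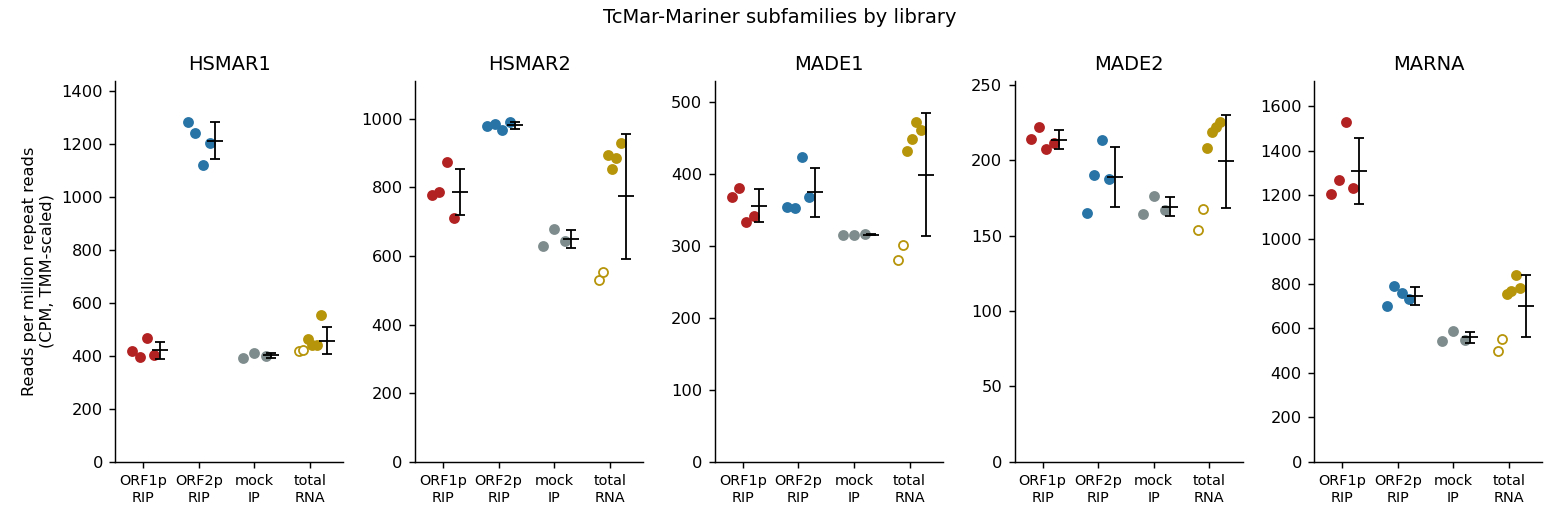
Level of each subfamily in every library, in CPM (repeat reads scaled per library, with TMM normalization), with open points for total RNA of series b and bars for the mean ± SD of a group. HSMAR1 stands at 1118 to 1282 CPM in the ORF2p RIP and at 554 or lower in all other libraries, and MARNA at 1207 to 1529 CPM in the ORF1p RIP and at 839 or lower elsewhere.

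HSMAR1, the long element with the SETMAR transposase among its copies, was high with ORF2p. Its level in CPM (repeat reads scaled per library, with TMM normalization) was 1282, 1239, 1118 and 1203 in the ORF2p RIP and 392, 411 and 401 in the mock IP. The ORF1p RIP gave 417, 396, 466 and 401 CPM, and total RNA ran from 417 to 554 with a median of 441. The ORF2p RIP libraries lay above all others, while the ORF1p RIP and the mock IP overlapped. HSMAR1 rose by 1.59 ± 0.10 on the log2 scale with ORF2p over the mock IP (SE, edgeR adjusted p = 7.12e-09), a 3.02-fold difference. It was also higher with ORF2p than with ORF1p by 1.53 ± 0.09 (SE, edgeR adjusted p = 1.01e-09). ORF1p over the mock IP stood at 0.07 ± 0.09 (SE, edgeR adjusted p = 0.579), and at -0.03 when libraries were scaled to their totals.

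A single locus carried the HSMAR1 difference. The locus at chr6:125688613-125689891 (minus strand, hg38), 1279 bases long and 11.2% diverged, lies within the spans of the lncRNA genes HEY2-AS1 on the minus strand and LINC02523 on the plus strand. It held 912, 858, 737 and 843 CPM in the ORF2p RIP and 33.0, 41.5 and 34.5 in the mock IP. In the ORF1p RIP it held 7.09, 11.0, 19.3 and 12.5 CPM, and in total RNA 12.9 to 53.8. This 1 locus supplied 69.1% ± 2.23 (n = 4, SD) of HSMAR1 reads in the ORF2p RIP, with 9.04% ± 0.922 (n = 3, SD) in the mock IP and 1.7% to 4.13% in the ORF1p RIP. It rose by 4.53 ± 0.51 with ORF2p over the mock IP (SE, edgeR adjusted p = 1.13e-06) and fell by 1.55 with ORF1p (SE 0.43, edgeR adjusted p = 0.00314). Without the locus HSMAR1 stood at 373 ± 10.1 CPM in the ORF2p RIP (n = 4, SD), 365 ± 5.4 in the mock IP (n = 3, SD), 408 ± 28.5 in the ORF1p RIP (n = 4, SD) and 423 ± 37.9 in total RNA (n = 6, SD). When the leading locus of each subfamily was left out, HSMAR1 with ORF2p over the mock IP stood at 0.03 (edgeR adjusted p = 0.793), and over the ORF1p RIP the sign turned to -0.13 (edgeR adjusted p = 0.153). None of the values of this locus above 0 was a whole number, so its reads are shared with other loci, by a rule that was not stated.

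**Figure D2:**
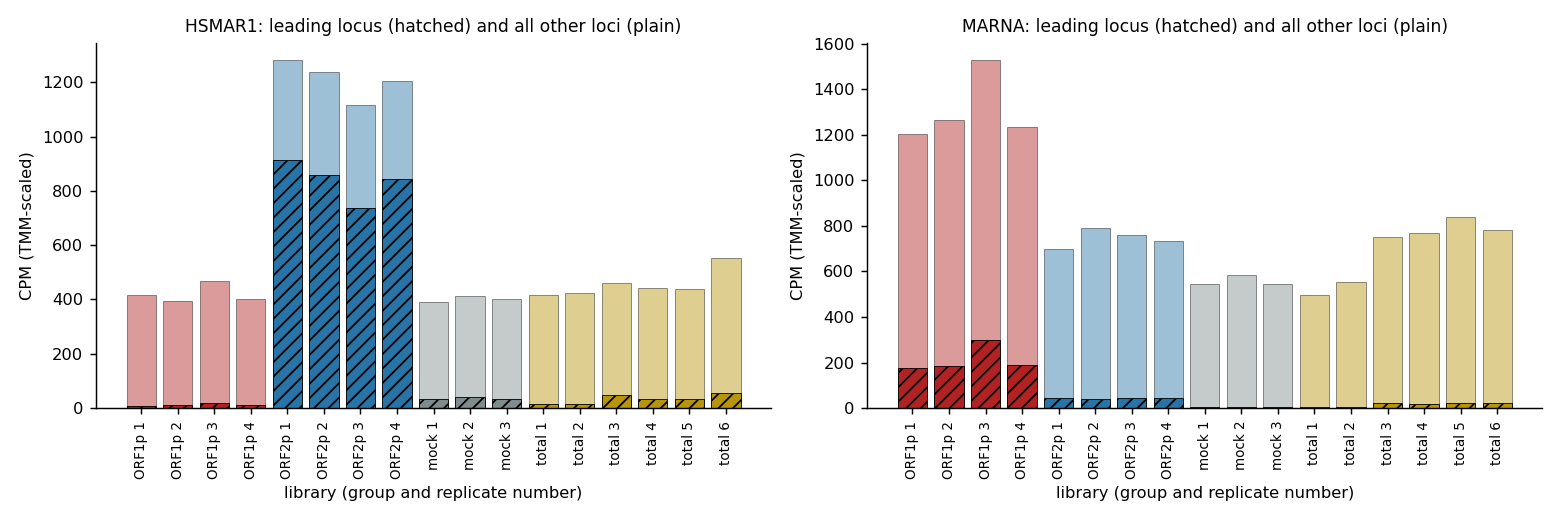
HSMAR1 (left) and MARNA (right) in each library in CPM on the TMM scale, split into the locus with the most reads over all libraries (hatched) and all other loci (plain). The hatched share of HSMAR1 reaches 737 to 912 CPM in the ORF2p RIP and stays under 54 elsewhere, while the plain part of MARNA is highest in the ORF1p RIP.

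The HSMAR1 copy of SETMAR, at chr3:4316073-4317322 (plus strand, 1250 bases, 5.3% diverged), runs 57 bases past the end of the RefSeq span of SETMAR and also lies in the span of SUMF1 on the other strand. It gave 23.1, 13.7, 22.2 and 20.2 CPM in the ORF2p RIP and 10.5, 7.33, 3.70 and 13.8 in the ORF1p RIP. The mock IP gave 3.55, 2.99 and 1.91 CPM and total RNA 2.27 to 3.83. Both RIPs lay above the mock IP in every library, but they overlapped each other. Only 11.8% of the values of the copy above 0 were whole numbers, so most of its values hold reads divided with other loci. The copy rose by 2.82 ± 0.43 with ORF2p over the mock IP (SE, edgeR adjusted p = 4.42e-05) and by 1.66 ± 0.42 with ORF1p (SE, edgeR adjusted p = 0.00146). Of the mean HSMAR1 level it made up 1.64% in the ORF2p RIP and 2.10% in the ORF1p RIP.

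Other HSMAR1 loci went with 1 protein or with neither. A locus that passed the filter on low counts (3 libraries with at least 1.50 CPM) only through libraries of its high group had to differ from a low group, so here and below such loci are given by their levels, as a description with no test. The locus at chr16:30850929-30851245, in BCL7C, a subunit gene of BAF chromatin remodelling complexes, gave 1.09 to 5.61 CPM in the ORF1p RIP and was at 0 in all mock IP libraries. Against a floor of 3 counts per library the ORF1p mean was at least 14.9-fold higher. Such bounds, here and below, set group means against the floor and leave out the spread of the libraries. The locus at chr5:53724163-53725442, in the lncRNA LOC124900975, gave 0.869 to 4.51 CPM with ORF1p and 0 in the mock IP, at least 14.3-fold higher. A locus at chr1:41302865-41304119 in the lncRNA LOC124904158 gave 1.50 to 4.27 CPM with ORF1p and 0 in all ORF2p RIP libraries, at least 8.73-fold lower with ORF2p. These 3 loci passed only through the ORF1p RIP. In MTMR3, a phosphoinositide phosphatase gene, the locus at chr22:29896332-29896814 stood at 0.232 CPM with ORF2p against 2.59 in the mock IP, a fall by 3.50 ± 0.71 (SE, edgeR adjusted p = 0.000754). Its means were 0.987 CPM in total RNA and 3.78 with ORF1p, so the mock IP mean was itself above total RNA. Among loci outside gene spans, that at chr11:39111007-39112294 was at 0 in all ORF1p RIP libraries against 3.17 ± 0.191 CPM in the mock IP (n = 3, SD) and 4.07 ± 0.682 in total RNA (n = 6, SD), at least 8.35-fold and 10.7-fold lower (edgeR adjusted p = 7.11e-08 and 8.92e-09). The locus at chr12:74107610-74108192 was at 0 in the ORF1p RIP and at 3.07 ± 1.07 CPM in the ORF2p RIP (n = 4, SD), at least 8.10-fold higher (edgeR adjusted p = 1.75e-07), and 23.1% of its values above 0 were whole numbers.

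HSMAR2, the other transposase-bearing element, was steady across the ORF2p RIP at 980, 984, 968 and 991 CPM. The mock IP gave 628, 679 and 644 CPM and the ORF1p RIP 779, 785, 874 and 711, so the 3 groups did not overlap. Total RNA ran from 529 to 929 CPM, with a mean of 541 in series b and 890.0 in series bl. With ORF2p over the mock IP the difference was 0.59 ± 0.17 on the log2 scale (SE, edgeR adjusted p = 0.0147), under the 2-fold change needed for a call. It stood at 0.29 with an adjusted p of 0.103 when libraries were scaled to their totals, and its adjusted p was 0.0566 without mock IP replicate 1. With ORF1p over the mock IP the difference was 0.28 ± 0.17 (SE, edgeR adjusted p = 0.187), and -0.000757 without the leading locus of each subfamily.

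That leading HSMAR2 locus, at chr4:82893709-82894962 (minus strand, 1254 bases), lies in SEC31A, a coat gene of vesicles that leave the endoplasmic reticulum, and in the lncRNA gene THAP9-AS1, both on the minus strand. It gave 170, 160, 175 and 134 CPM with ORF1p, 48.3, 60.9, 62.7 and 52.2 with ORF2p and 20.9, 21.5 and 23.2 in the mock IP. Total RNA gave 13.2 to 60.6 CPM. It held 20.2% ± 1.22 (n = 4, SD) of HSMAR2 reads in the ORF1p RIP and 3.37% ± 0.225 (n = 3, SD) in the mock IP. It rose by 2.87 ± 0.47 with ORF1p over the mock IP (SE, edgeR adjusted p = 1.52e-05) and by 1.36 ± 0.44 with ORF2p (SE, edgeR adjusted p = 0.0244), and it was higher with ORF1p than with ORF2p in every library. Of its values above 0, 11.8% were whole numbers, so most of them hold divided reads. The ORF2p call over the mock IP was lost in 5 of 23 alternatives: by library totals (1.05), without each mock IP replicate in turn (adjusted p = 0.0688 to 0.0845) and without ORF2p RIP replicate 3 (adjusted p = 0.0521).

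The 3 HSMAR2 fragments named on chromosome 19 were high with ORF2p. The fragment at chr19:53385697-53385940 in ZNF525, a zinc finger gene, gave 97.3, 62.6, 81.3 and 87.4 CPM with ORF2p, 1.71 to 5.33 with ORF1p, 2.15 to 3.69 in the mock IP and 1.95 to 3.11 in total RNA. It rose by 5.08 ± 0.34 with ORF2p over total RNA (SE, edgeR adjusted p = 1.03e-10) and stood at -0.09 ± 0.39 with ORF1p over the mock IP (SE, edgeR adjusted p = 0.862). Fragments at chr19:52967084-52967327 and chr19:52967602-52967831 lie outside gene spans, 4203 and 4721 bases from ZNF816-ZNF321P. They gave 15.1 ± 3.76 and 17.6 ± 1.76 CPM with ORF2p (n = 4, SD) against 0.214 ± 0.157 and 0.247 ± 0.109 in the mock IP (n = 3, SD). Both passed the filter only through the ORF2p RIP. Only 24% to 65% of the values of these 3 fragments above 0 were whole numbers, so part of their reads is shared with other loci.

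HSMAR2 also held loci seen almost only with ORF1p and loci missing from it. The locus at chr7:13277471-13278708, outside gene spans, gave 1.33, 2.88, 3.33 and 3.22 CPM with ORF1p and was at 0 in all 13 other libraries, at least 13.6-fold higher than the mock IP. None of its values above 0 was whole. The locus at chr1:98290967-98292218, outside gene spans, gave 3.86 to 5.19 CPM with ORF1p and 0 to 0.063 in total RNA. Both loci passed the filter only through the ORF1p RIP. At 0 in all ORF1p RIP libraries were a locus in ANO5 at chr11:22233365-22234637 and loci outside gene spans at chr13:106136494-106137796, chr17:12371893-12373186 and chr6:98105264-98106244. Their mock IP means were 4.52, 3.78, 3.57 and 2.49 CPM, at least 11.9-fold, 9.97-fold, 9.42-fold and 6.55-fold above the ORF1p RIP (edgeR adjusted p = 5.22e-08, 3.16e-07, 2.25e-07 and 2.27e-06). Whole numbers made up 38.5% and 46.2% of the values above 0 of the first 2 of these and 69.2% and 61.5% of the others. With ORF2p over the mock IP a locus in the protocadherin gamma cluster at chr5:141466334-141466916 fell by 3.87 ± 0.70 (SE, edgeR adjusted p = 0.000243). A locus in JADE3 at chrX:47013427-47014702 fell by 3.35 ± 0.61 (SE, edgeR adjusted p = 0.000272). JADE3 encodes a partner of the HBO1 histone acetyltransferase, and the protocadherin genes encode cell adhesion proteins.

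MADE1, the shortest and most numerous element, gave 368, 381, 333 and 341 CPM with ORF1p, 354, 352, 424 and 368 with ORF2p and 315, 316 and 316 in the mock IP. Every RIP library lay above every mock IP library, yet neither difference passed: it was 0.17 ± 0.16 with ORF1p (SE, edgeR adjusted p = 0.373) and 0.25 ± 0.16 with ORF2p (SE, edgeR adjusted p = 0.242). By library totals the ORF2p value was -0.06. Total RNA was split by series, at a mean of 291 CPM in series b and 453 in series bl. MADE2 gave 214, 222, 208 and 212 CPM with ORF1p, 165, 190, 213 and 188 with ORF2p and 164, 177 and 167 in the mock IP. It was 1.26-fold higher with ORF1p than in the mock IP, by 0.34 ± 0.12 on the log2 scale (SE, edgeR adjusted p = 0.0305), under the 2-fold needed for a call and with an adjusted p of 0.122 by library totals. With ORF2p it stood at 0.16 ± 0.12 (SE, edgeR adjusted p = 0.341), and at -0.15 by library totals.

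Single MADE1 copies were far from this even level. The copy with the most reads, at chr7:55460612-55460684 (plus strand, 73 bases) in VOPP1, which is on the minus strand, gave 39.1, 22.9, 31.3 and 32.8 CPM with ORF2p and 4.60, 5.76, 11.8 and 5.82 with ORF1p. The mock IP gave 1.24, 2.19 and 1.09 CPM and total RNA 0.292 to 2.70. It rose by 4.37 ± 0.59 with ORF2p over the mock IP (SE, edgeR adjusted p = 9.87e-06) and by 2.18 ± 0.54 with ORF1p (SE, edgeR adjusted p = 0.00137). Of its values above 0, 29.4% were whole numbers. A copy at chr5:24203366-24203414, outside gene spans, gave 20.4, 38.8, 25.7 and 25.8 CPM with ORF2p and at most 1.14 in any other library. It passed the filter only through the ORF2p RIP. These copies supplied 8.42% and 7.39% of the mean MADE1 level in the ORF2p RIP. A copy at chrX:84905499-84905541, outside gene spans, gave 10.4 to 15.2 CPM with ORF2p, 2.23 ± 0.456 in the mock IP (n = 3, SD) and 0 in all ORF1p RIP libraries, at least 34.3-fold higher with ORF2p than with ORF1p (edgeR adjusted p = 2.94e-08).

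A MADE1 copy at chr3:67752027-67752066 in the lncRNA SUCLG2-DT gave 1.48 to 3.94 CPM with ORF2p and 0 in the mock IP, at least 11.9-fold higher, and passed only through the ORF2p RIP. A copy at chr11:82005229-82005274 in the lncRNA MIR4300HG was at 0 in the ORF1p RIP against 3.64 ± 0.597 CPM in the mock IP (n = 3, SD), at least 9.59-fold lower (edgeR adjusted p = 2.84e-08). A copy at chr5:175935212-175935290, outside gene spans, stood at 0.136 CPM with ORF2p and 0.0688 with ORF1p against 1.42 ± 0.573 in total RNA (n = 6, SD), and it passed only through total RNA. For MADE2 the copy with the most reads, at chrX:23384789-23384854 in PTCHD1, gave 0 to 0.322 CPM with ORF1p, 2.33 to 4.40 with ORF2p, 2.43 to 3.53 in the mock IP and 2.58 to 7.68 in total RNA. It fell by 4.42 ± 0.67 with ORF1p over the mock IP (SE, edgeR adjusted p = 6.37e-06). A MADE2 copy at chr13:39450695-39450772 in LHFPL6 went the other way, with 1.71 to 3.54 CPM with ORF1p, 0.182 to 0.305 in the mock IP and at most 0.0686 with ORF2p. It passed only through the ORF1p RIP.

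MARNA, the oldest of the 5, was high with ORF1p. It gave 1207, 1266, 1529 and 1233 CPM in the ORF1p RIP, 698, 791, 759 and 732 in the ORF2p RIP and 544, 586 and 547 in the mock IP. Total RNA gave 498 to 839 CPM, with a mean of 525 in series b and 786 in series bl. The ORF1p RIP lay above every other library, and the ORF2p RIP lay above the mock IP. MARNA rose by 1.23 ± 0.16 with ORF1p over the mock IP (SE, edgeR adjusted p = 7.48e-06), a 2.34-fold difference, and by 1.14 without ORF1p RIP replicate 3 (edgeR adjusted p = 2.82e-05). With ORF2p the difference was 0.41 ± 0.15 (SE, edgeR adjusted p = 0.0484), and 0.11 by library totals with an adjusted p of 0.479. With ORF2p over ORF1p MARNA stood at -0.81 ± 0.14 (SE, edgeR adjusted p = 0.000132), short of 2-fold on the TMM scale, and at -1.02 by library totals.

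The MARNA difference was spread over more loci than that of HSMAR1. Its leading locus, at chr15:49126579-49126890 (minus strand, 312 bases, 23.9% diverged) in COPS2, a COP9 signalosome subunit gene on the same strand, gave 174, 186, 298 and 188 CPM with ORF1p. It gave 43.7, 39.2, 45.8 and 42.7 CPM with ORF2p, 3.42, 3.19 and 3.83 in the mock IP and 4.05 to 24.1 in total RNA. The 3 kinds of pull-down did not overlap. It rose by 5.92 ± 0.61 with ORF1p over the mock IP (SE, edgeR adjusted p = 2.43e-08) and by 3.61 ± 0.54 with ORF2p (SE, edgeR adjusted p = 3.39e-05), and 24% of its values above 0 were whole numbers. The locus made up 16.2% of the mean MARNA level with ORF1p and 0.622% in the mock IP. Without it MARNA stood at 1097 ± 91.7 CPM with ORF1p (n = 4, SD) and 556 ± 23.8 in the mock IP (n = 3, SD), a fitted difference of 0.98 that missed 2-fold (edgeR adjusted p = 5.01e-05). Without the 5 leading loci of each subfamily it was 1.05 (edgeR adjusted p = 1.03e-05).

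Several MARNA loci in protein-coding spans were found with ORF1p and hardly elsewhere. The locus at chr12:106683268-106683474 in RFX4, a transcription factor gene, gave 10.5, 10.1, 12.7 and 9.46 CPM with ORF1p, 0 in all ORF2p RIP libraries and at most 0.0851 in any other library. It was at least 35.4-fold lower with ORF2p than with ORF1p, and 2 lncRNA genes on the minus strand, that of the element, also span it. The locus at chr3:86984336-86984620 in VGLL3, a cofactor of TEAD transcription factors, gave 5.22 to 13.6 CPM with ORF1p and 0 with ORF2p, at least 26.3-fold lower. The locus at chr4:61302702-61303016 in ADGRL3, an adhesion receptor gene, gave 3.19 to 4.35 CPM with ORF1p and 0 in the mock IP, at least 20.2-fold higher. All 3 passed the filter only through the ORF1p RIP. With ORF2p the locus at chr2:224576953-224577095 in CUL3, a scaffold gene of ubiquitin ligases, fell by 3.53 ± 0.79 against the mock IP (SE, edgeR adjusted p = 0.002), from 1.69 to 0.122 CPM. The CUL3 locus had means of 0.384 CPM in total RNA and 3.54 with ORF1p, so the mock IP mean was itself above total RNA. It would not have passed the filter without the ORF1p RIP. A locus outside gene spans at chr3:170839387-170839588 was at 0 in the ORF1p RIP against 2.01 ± 0.345 CPM in the mock IP (n = 3, SD) and 5.76 ± 2.83 in total RNA (n = 6, SD), at least 15.2-fold lower than total RNA (edgeR adjusted p = 6.29e-08).

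With no protein captured on purpose, the mock IP still differed from total RNA at 8 mariner loci, 1.38% of the 579 tested, where 3.04% of all loci were called in edgeR. Of the 8, 7 had groups that did not overlap and are named here. When single libraries were left out the count ran from 1 to 50. It was 1 without mock IP replicate 1 or 3, where 0.240% and 0.598% of all loci were called, and 50 of 501 without total RNA replicate 1, where 12.6% of all were. Against series bl alone it was 109 of 414, where 33.8% of all loci were called. In the pseudogene ALG1L7P the MADE1 copy at chr4:3940519-3940586 gave 3.82 to 4.49 CPM in the mock IP and 0.364 to 1.89 in total RNA, and it rose by 2.10 ± 0.43 (SE, edgeR adjusted p = 0.0111), with 21.4% of its values above 0 whole. MARNA loci in MIA2 (chr14:39322929-39323148) and NFX1 (chr9:33310132-33310440) rose by 2.98 ± 0.64 and 1.15 ± 0.31 (SE, edgeR adjusted p = 0.0132 and 0.0415), and the MADE2 copy in LHFPL6 by 2.88 ± 0.78 (SE, edgeR adjusted p = 0.043). MARNA loci in COPS2, TMEM144 (chr4:158254034-158254190) and TENM3 (chr4:182458988-182459386) fell by 2.22, 2.98 and 2.04 (SE 0.49, 0.82 and 0.51, edgeR adjusted p = 0.0163, 0.0467 and 0.0312). Among alternative fits the call held in only 6 of 22 for TMEM144, 9 of 22 for LHFPL6 and 12 of 23 for NFX1. It held in 15 of 24 for TENM3, 18 of 23 for COPS2, 19 of 22 for ALG1L7P and 20 of 23 for MIA2. The COPS2 and TENM3 loci differed between the series of total RNA as well, at 4.05 and 5.06 CPM in series b and 17.7 to 24.1 in series bl for COPS2. With ORF2p over total RNA the MARNA locus in DNAJC1 (chr10:21994117-21994341) fell by 3.78 ± 1.06 (SE, edgeR adjusted p = 0.0068). Its means were low, at 0.478 CPM in total RNA, 0.0307 with ORF2p and a similar 0.0405 in the mock IP. With ORF1p it stood at 1.94 CPM, and the locus passed the filter only through the ORF1p RIP. That in ATP2B1, a calcium pump gene (chr12:89690124-89690394), had means of 1.63 CPM in total RNA and 0.14 with ORF2p, and it passed the filter only through total RNA.

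**Figure D3:**
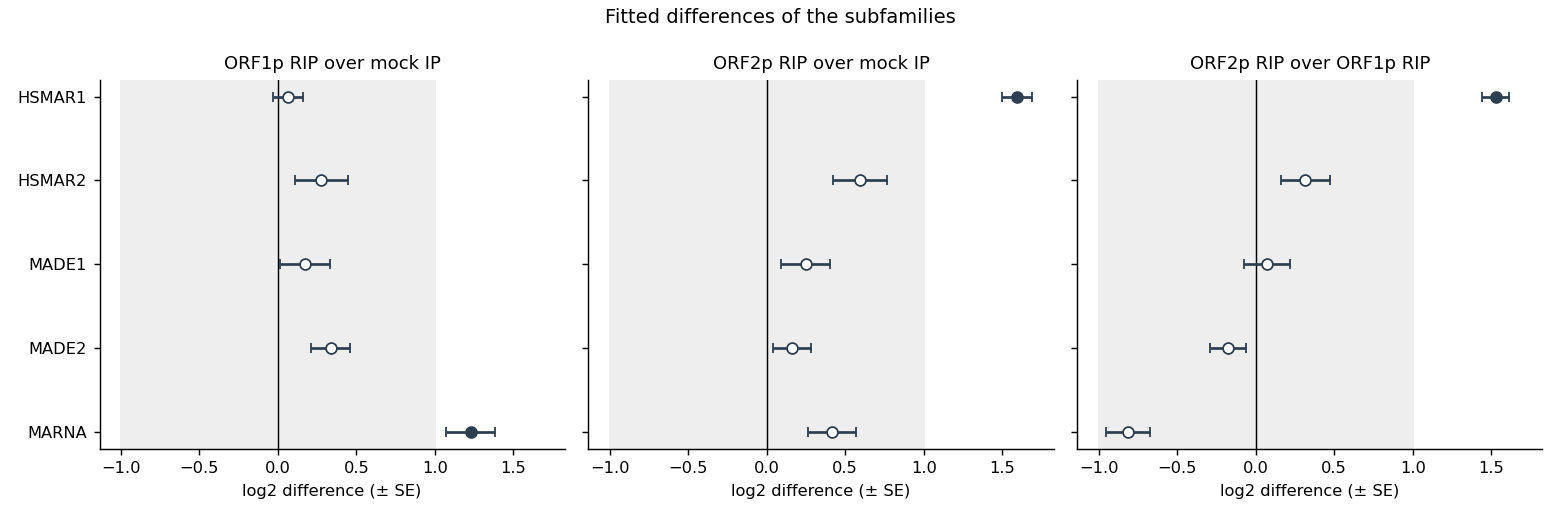
Fitted log2 difference of each subfamily with its SE in the 3 comparisons among pull-downs, with filled points for those with an adjusted p under 0.05 and at least 2-fold and a grey band for changes under 2-fold. MARNA at 1.23 in the first panel and HSMAR1 at 1.59 and 1.53 in the others are the only filled points.

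A subfamily was called at an edgeR adjusted p under 0.05 and at least a 2-fold change. MARNA alone of the 5 was called with ORF1p over the mock IP, where 16.1% of all 1074 subfamilies tested were called, 7.36% higher and 8.75% lower. HSMAR1 alone was called with ORF2p over the mock IP, where 8.19% were called, 6.7% higher and 1.49% lower. It alone was called with ORF2p over ORF1p, where 18.9% were called, 12.4% higher and 6.52% lower. A count of 1 in 5 is too small to be read against these percentages. Against total RNA, MARNA was higher with ORF1p by 0.90 ± 0.13 (SE, edgeR adjusted p = 1.42e-05), short of 2-fold, and by 0.70 against series bl alone. None of the 5 was called with ORF1p over total RNA, where 17.4% were called, 9.12% higher and 8.29% lower. HSMAR1 rose by 1.41 ± 0.08 with ORF2p over total RNA (SE, edgeR adjusted p = 9.12e-10), where 6.42% were called, 5.12% higher and 1.3% lower, and by 1.35 against series bl alone. By library totals it was 0.99 and missed 2-fold, and without the leading locus of each subfamily it turned to -0.18. With the mock IP over total RNA none of the 5 was called and 0.745% of all were, and the 5 differences ran from -0.34 to -0.18 in edgeR, with 3 unadjusted p-values under 0.05 and adjusted p-values of 0.156 to 0.258. The comparisons share libraries, so their values are not independent of each other. Among the 236 subfamilies of the DNA class that were tested, HSMAR1 ranked 2 by its change with ORF2p over the mock IP and MARNA ranked 13 with ORF1p. Of the 73 subfamilies of the related TcMar families, 6 rose and 0 fell with ORF1p over the mock IP, and 1 rose and 0 fell with ORF2p in edgeR.

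Locus by locus, 579 of the 10943 passed the filter on low counts, and they held 70.6% of the mariner reads. The filter left 92 HSMAR1, 175 HSMAR2, 82 MADE1, 44 MADE2 and 186 MARNA loci, with 91.2%, 84.2%, 40.8%, 30.4% and 65.8% of their subfamily's reads, so most MADE1 and MADE2 reads lie in loci too sparse to test. A locus that passed through the group where it is high had to differ, so the counts below describe the loci tested only: 120 would not have passed without the ORF1p RIP, 39 without the ORF2p RIP, 7 without the mock IP and 65 without total RNA. With ORF1p over the mock IP, 198 of 579 rose and 182 fell in edgeR, where 59.9% of all 196463 loci tested were called, 28.8% higher and 31.1% lower, and the median difference was 0.28 against 0.06 for all loci. By subfamily, 86 MARNA loci rose and 34 fell, with a median difference of 1.33. In the other subfamilies 26 rose and 37 fell for HSMAR1, 38 and 61 for HSMAR2, 30 and 35 for MADE1 and 18 and 15 for MADE2. Of the MARNA loci, 53 of 186 would not have passed the filter without the ORF1p RIP. The same held for 11 of 92 HSMAR1, 22 of 175 HSMAR2, 22 of 82 MADE1 and 12 of 44 MADE2 loci. The filter thus set part of these counts. With ORF2p over the mock IP, 82 rose and 45 fell, where 25.7% of all loci were called, 14.2% higher and 11.5% lower, and the median was 0.02 against -0.19 for all. By library totals the split was 66 risen and 80 fallen of 561, where 30.9% of all loci were called and the median of all stood at -0.54. With ORF2p over ORF1p, 189 rose and 190 fell, where 63.6% of all were called, 33.6% higher and 30% lower. Against total RNA, 208 rose and 210 fell with ORF1p, where 65.6% of all were called, 32.6% higher and 33.0% lower. With ORF2p 88 rose and 109 fell, where 37.6% of all were called, 19.2% higher and 18.4% lower, and by library totals 56 rose and 184 fell of 561, where 45.4% of all were called and the median of all moved from -0.20 to -0.68. With the mock IP over total RNA 4 rose and 4 fell, where 3.04% of all were called, 2.51% higher and 0.531% lower, and by library totals 2 rose and 8 fell of 561, where 2.53% of all were called and the median of all moved from -0.03 to -0.15.

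Gene spans ordered the loci in the ORF1p RIP. The share of mariner reads in loci that overlap a protein-coding gene span was 81.5% ± 0.512 (n = 4, SD) with ORF1p, 48.2% ± 1.43 (n = 4, SD) with ORF2p, 61.4% ± 0.432 (n = 3, SD) in the mock IP and 59.5% ± 2.79 (n = 6, SD) in total RNA, while 53.8% of the loci lie in such spans. For all repeats it was 71.9% ± 3.49 (n = 4, SD), 52.0% ± 0.420 (n = 4, SD), 54.2% ± 0.296 (n = 3, SD) and 55.1% ± 3.67 (n = 6, SD), so the direction with ORF1p is that of repeats as a whole. For mariners the ORF1p RIP lay above all other groups in every library. The exact two-sided permutation test gave p = 0.0571 against the mock IP and 0.00952 against total RNA, the smallest possible. After adjustment over 42 tests these were 0.08 and 0.0444. Against the mock IP the test could thus not meet the threshold for a call and decides nothing. The members were chosen with earlier results of these data known, so both p-values only describe this order. Each of the 5 subfamilies had the same order of ORF1p over mock IP and total RNA, from 67.4% with ORF1p against 36.7% in the mock IP for HSMAR1 to 93.4% against 81.7% for MARNA. The low mariner share with ORF2p goes with the chromosome 6 locus of HSMAR1, whose genes are lncRNAs: HSMAR1 alone had 14.9% ± 0.775 (n = 4, SD) of its reads in protein-coding spans with ORF2p, and 73.3% ± 1.92 in lncRNA spans.

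**Figure D4:**
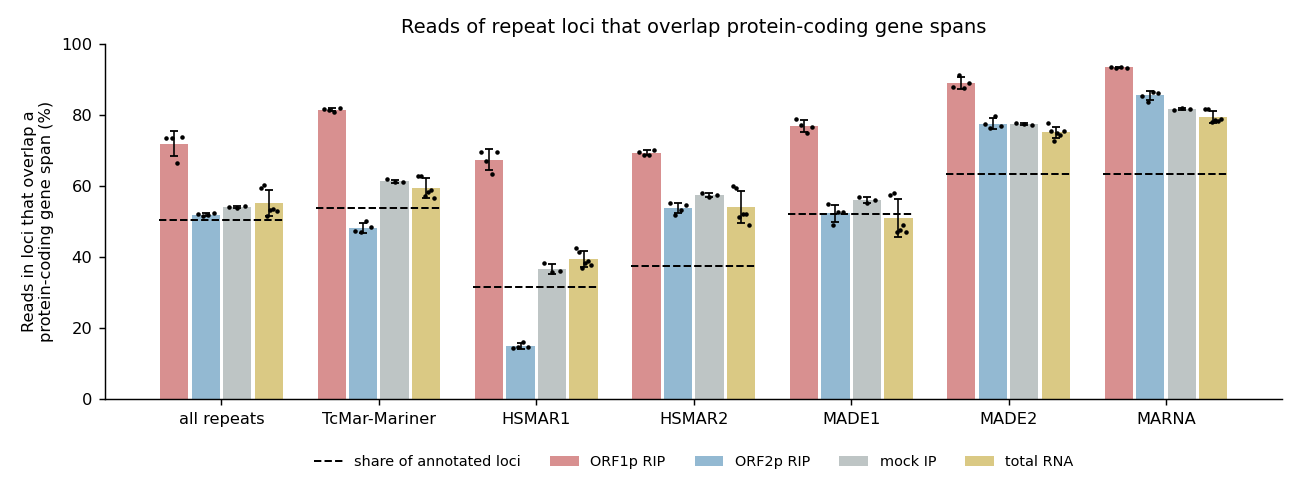
Percentage of reads in loci that overlap a protein-coding gene span, for all repeats, for the family and for each subfamily (bars are group means, error bars SD, points libraries, dashed lines the share of annotated loci). The ORF1p RIP bar is the highest in each set, at 81.5% for the family, and the HSMAR1 bar with ORF2p is the lowest, at 14.9%.

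The changes of single loci come from the same counts, so they describe this order again and add no separate evidence. Of the 579 loci tested, 120 would not have passed the filter without the ORF1p RIP, and these were not split by gene span. In protein-coding spans 165 of 391 mariner loci tested rose and 70 fell with ORF1p over the mock IP in edgeR, or 42.2% and 17.9%, where 32.5% of all loci in such spans rose and 19.6% fell. The median difference was 0.92 for mariners and 0.47 for all loci in such spans. In spans of lncRNA genes only, 19 of 87 rose and 44 fell, or 21.8% and 50.6%, close to the 23.6% and 49.4% of all loci there, with medians of -1.30 for mariners and -1.36 for all loci. Outside gene spans 14 of 100 rose and 67 fell, where 20.8% of all such loci rose and 55.0% fell, with medians of -3.82 for mariners and -2.49 for all. Of the mariner loci tested, 46 were at 0 in all ORF1p RIP libraries, 25 of them outside gene spans. By contrast 6 were at 0 in all ORF2p RIP libraries, 6 in all mock IP libraries and 1 in all total RNA libraries. The same count was not made over all repeat loci tested, and the groups differ in number of libraries. No trait of mariners is therefore read from these zeros. The ORF1p RIP also had the lowest mean depth, 8247550 repeat reads, and the part of depth in these zeros was not tested. With ORF2p over the mock IP the medians were 0.01, -0.12 and 0.18 in protein-coding, lncRNA-only and no spans, for 391, 87 and 100 loci.

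**Figure D5:**
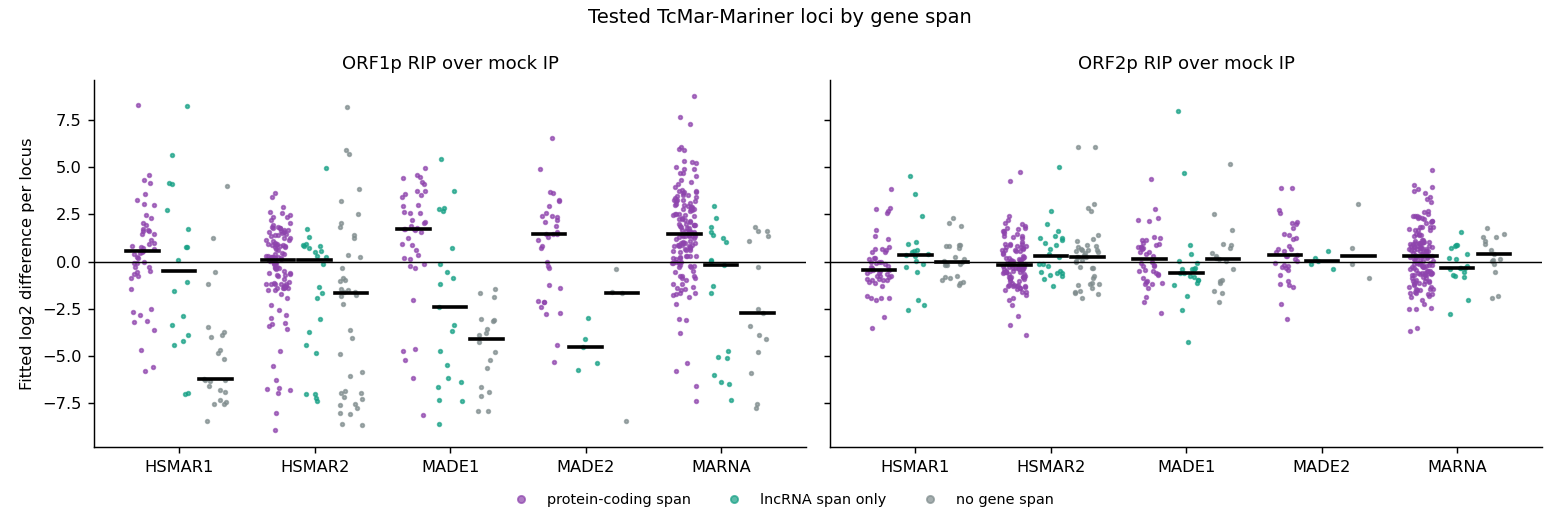
Fitted log2 difference of each tested locus against the mock IP by subfamily and gene span (points, spread sideways at random), with black lines for medians. With ORF1p the medians fall from 1.75 in protein-coding spans to -4.07 outside gene spans for MADE1 and from 0.58 to -6.19 for HSMAR1, and with ORF2p all medians lie between -0.61 and 0.39.

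Copies were also split by length and by divergence from the consensus. HSMAR1 copies of at least 1200 bases, 203 of 576, held 1081 ± 64.7 CPM with ORF2p (n = 4, SD) and 268 ± 9.42 in the mock IP (n = 3, SD). The chromosome 6 locus is among them and alone held 838 CPM with ORF2p and 36.3 in the mock IP. Most of the difference of the long HSMAR1 copies thus lies in that locus. Shorter HSMAR1 copies held 130 ± 8.57 and 134 ± 4.98 CPM. For HSMAR2 the long copies, 312 of 1364, held 454 ± 34.8 CPM with ORF1p (n = 4, SD), 450 ± 34.3 with ORF2p (n = 4, SD) and 288 ± 11.2 in the mock IP (n = 3, SD). Shorter HSMAR2 copies held 333 ± 48.8, 531 ± 36.8 and 362 ± 15.3 CPM. The SEC31A locus, among the long copies, alone held 160 CPM with ORF1p, 56.0 with ORF2p and 21.9 in the mock IP. The 3 chromosome 19 fragments, among the shorter copies, held 82.2, 15.1 and 17.6 CPM with ORF2p. In the mock IP they held 2.98, 0.214 and 0.247 CPM. The split was not made without these loci, so no trait of long or short HSMAR2 copies is read from it. Among HSMAR1 loci tested, those more diverged than the median had a median difference of 3.30 with ORF2p over ORF1p against -1.04 for the rest, and 16 of 44 lay in protein-coding spans against 35 of 48. HSMAR2 gave 1.84 against -0.25, with 29 of 76 against 82 of 99 in such spans. For MADE1 the more diverged loci lay in protein-coding spans in 22 of 46 cases against 20 of 36. The part of gene spans in these differences was not tested. For MARNA, where 83 of 102 and 69 of 84 lay in protein-coding spans, the medians were -0.61 and -1.13.

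Loci that hold microRNA genes had few reads in every group. Of these 56 loci, 7 had no reads in any library, and 2 reached a mean of 1 CPM over the libraries and passed the filter. Few reads are no mark of microRNA loci, since only 82 of all 4553 MADE1 loci, or 1.80%, passed the filter. The MIR548O locus, an HSMAR1 copy at chr7:102405738-102406933 in PRKRIP1, gave 0.161 to 2.05 CPM with ORF1p, 0.480 to 1.97 with ORF2p, 1.35 to 2.06 in the mock IP and 0.504 to 2.38 in total RNA. All groups overlapped, and it passed in no comparison. The MIR548AQ locus, the MADE1 copy at chr3:185767837-185767916 that makes the miR-548aq sequences above, lies in IGF2BP2, the gene of an RNA-binding protein, on the same strand. It gave 1.60, 2.21, 0.483 and 2.17 CPM with ORF1p, 0.106, 0.123, 1.26 and 0.0686 with ORF2p and 1.16, 0.607 and 0.827 in the mock IP. The groups overlapped through replicate 3 of each RIP, and the locus would not have passed the filter without the ORF1p RIP. The MIR570 element printed above had 174 reads over all libraries, a mean of 0.827 CPM, and the MIR548M element had 1. The libraries were not made from size-selected small RNA, so these reads say nothing of mature microRNAs.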

How the data were processed

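RNA in 17 libraries of N2102Ep cells was measured as estimated counts per repeat locus, as deposited by the authors. The submitters' processing notes name STAR as aligner and hg38 as build. The counting program, its treatment of reads with several matches and its use of strand are not stated. Of 60 value columns, 43 match no sample here and were not used. Library preparation removed ribosomal RNA with probes, per the labels' protocols. Estimated counts were summed by subfamily or kept per locus and rounded to whole numbers, and starts were shifted by 1 base. edgeR 4.0.16 in R 4.3.3 fitted all 17 libraries with a group term (quasi-likelihood test, TMM normalization, Benjamini-Hochberg adjustment), with filterByExpr at 10 counts for subfamilies and 20 for loci, where library sizes and TMM factors came from subfamilies. A call needs an adjusted p under 0.05 and at least 2-fold. SEs are the log2 change over the square root of F. A group at 0 was set to a floor of 3 counts per library for bounds on ratios of group means. These bounds cover counting error only and leave out the spread of the libraries. No p is given where only the libraries of a compared group carried a locus past the filter. Gene spans and sequences came from RefSeq (GRCh38.p14). The fit was tested on simulated data. Named loci were the locus with the most reads of each subfamily, the 4 higher and 4 lower loci with the largest change in each comparison among called loci whose groups did not overlap, the HSMAR1 locus of SETMAR and microRNA loci that passed the filter. SETMAR was matched by overlap, a rule set after the data were seen. The members and lists were chosen with earlier results of these data known.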

Additional observations from a re-analysis of the deposited data

Results flagged for a closer look

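A sample far from the rest of its group was found in 3 of 36 groups tested, and chance alone flags about 1 in 20 groups. HSMAR1 stood at 553.8 CPM in total RNA replicate 6, against 461.9 in the nearest of the other 5. The MARNA locus in COPS2 stood at 297.9 CPM in ORF1p RIP replicate 3, against 188.4 in the nearest of the other 3. The MADE1 locus in VOPP1 stood at 11.83 CPM in the same library, against 5.815 in the nearest. No cause was tested for any of them.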

How the results depend on the processing

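Without the locus with the most reads of each subfamily, 0 subfamilies were called with ORF1p over the mock IP, ORF2p over the mock IP, ORF2p over ORF1p or ORF2p over total RNA, and without the 5 such loci 0 in the last 3, while MARNA stayed called with ORF1p over the mock IP. HSMAR1 then turned to -0.13 and -0.25 with ORF2p over ORF1p and to -0.18 and -0.30 with ORF2p over total RNA. Scaling by library totals called 2 subfamilies with ORF2p over ORF1p and 0 with ORF2p over total RNA. It moved the median of all subfamilies from -0.03 to -0.34 with ORF2p over the mock IP. Whether replicate numbers pair the libraries was not settled: 21 same-numbered pairs had correlations of -0.469 to 0.448, with 12 above 0.1. Pairs with total RNA also carry the difference between its series b and bl. With the replicate number as a block, 1 subfamily was called with ORF1p over total RNA (MARNA, 1.04) and 0 loci with the mock IP over total RNA. Called loci (380, 127, 379, 418, 197 and 8 in the order ORF1p and ORF2p over the mock IP, ORF2p over ORF1p, ORF1p, ORF2p and the mock IP over total RNA) came to 84, 39, 70, 80 and 49 of 94 tested in the first 5 at a minimum of 100 counts, where 77.7%, 47.6%, 75.5%, 79.1% and 53.8% of all loci were called. They came to 112, 29, 108, 118, 38 and 2 of 163 among loci with at least 90% whole values, where 62.2%, 17.1%, 67.3%, 68.4%, 30.8% and 2.22% of all such loci were called. A minimum of 10 counts gave 607 with ORF2p over ORF1p and 663 with ORF1p over total RNA, of 1042 tested, where 53.6% and 55.4% of all were called. Fitting only the groups compared gave 204 of 267 with ORF1p over the mock IP and 142 of 210 with ORF2p over ORF1p, where 72.9% and 70.1% of all were called. Series bl alone gave 109 of 414 with the mock IP over total RNA, where 33.8% of all loci were called. Leaving out each replicate in turn gave 331 to 396, 87 to 137, 326 to 403, 355 to 436, 153 to 206 and 1 to 50 called loci of 491 to 619 tested. Of all loci 52.4% to 63.9%, 17.8% to 30.2%, 59.1% to 66.9%, 61.2% to 68.2%, 32.3% to 43.0% and 0.240% to 12.6% were then called. The lowest and highest counts with the mock IP over total RNA were 1 without mock IP replicate 1 or 3 and 50 without total RNA replicate 1. Leaving out replicates left the counts of called subfamilies as they were. Except where a value or fewer tested loci show it, the cause was not tested. Depth limits MADE1 and MADE2 most, since most of their reads lie in loci too sparse to test.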
